A study of Oryctolagus cuniculus with 4 samples.

Results

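Urothelial cells in which no transcript of KRT5 or of the uroplakins UPK1B and UPK3B was counted numbered 294 of 1319 urothelial cells (22.3%), among 20743 cells kept from 25659 barcodes. They were chosen by measured UMI counts (molecules counted once each by a unique molecular identifier): a cell needed 2000 or more UMIs, 200 or more genes and no more than 15% of its UMIs in 13 mitochondrial genes, KRT15, KRT18 and KRT7 together took at least 0.2% of its UMIs, DCN and LUM together took under 0.5%, and PTPRC, KRT5, UPK1B and UPK3B were all at 0. They are called KRT5- UPK- cells here, and uroplakin stands for UPK1B and UPK3B alone, since UPK1A, UPK2 and UPK3A were not analysed here. The values of the genes in this rule describe the choice and were not tested.

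The bladder urothelium is a layered epithelium. Basal cells rest on the basement membrane, carry TP63, and bind laminin through integrins. In rabbit, the study of these animals found Krt5 protein in scattered basal cells only. All of these also had p63, the TP63 protein, but not all p63 cells had Krt5, and p63 was found in intermediate cells too. Intermediate cells lie above them, and umbrella cells at the surface carry the plaques of uroplakins that seal the bladder against urine. After a wound, cells from the lower layers divide, spread over the defect and mature again.

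Bladder mucosa of adult New Zealand rabbits was profiled cell by cell with droplet RNA sequencing. Injury_1 and Injury_2 were taken on day 10 after a focal patch of mucosa had been cut from the posterior bladder wall and the defect had newly closed over, and Normal_1 and Normal_2 were normal mucosa. All 4 samples were digested with collagenase and made into 3' libraries in the same way, with 1 library per rabbit, so that injury, rabbit and library cannot be told apart beyond 2 rabbits against 2. Sex is not given in the sources used here. Although the labels call the tissue urothelium, 6.36% of the kept cells passed the urothelial part of the rule. Values are given throughout in the order Injury_1, Injury_2, Normal_1 and Normal_2, and levels as CPM (the UMIs of a gene as a share of all UMIs of the same cells in that library, scaled to counts per 1e6).

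The 294 cells came from all libraries, with 50, 66, 115 and 63 cells, and held 710887, 1109254, 1424968 and 1193599 UMIs. A cell held between 2047 and 34780 UMIs, with a median of 14684.5. Of the barcodes, 67 occurred in more than 1 library, and 0 of these were among the 294 cells. The other urothelial cells were split by the same counts into 284 KRT5-detected cells (41, 60, 131 and 52) with no uroplakin UMI, 614 uroplakin-detected cells (360, 134, 101 and 19) with no KRT5 UMI, and 127 cells with both (47, 61, 14 and 5).

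The rule's keratins were present by choice: KRT15, a keratin of stratified epithelia, was at 4606, 4217, 2110 and 2641 CPM, KRT18, a simple epithelial keratin, at 1778, 1516, 1795 and 2184 CPM, and KRT7, also a simple epithelial keratin, at 450.1, 421.9, 150.2 and 235.4 CPM. The label of urothelial cell was checked with epithelial genes outside the rule. CDH1, the epithelial cadherin, stood at 256.0, 219.1, 323.5 and 226.2 CPM, and EPCAM, another epithelial adhesion molecule, at 185.7, 230.8, 143.9 and 74.6 CPM. A UMI of CDH1 or EPCAM was found in 84.0%, 95.5%, 85.2% and 88.9% of the cells. The 9 epithelial identity genes in the files summed to 1381, 1207, 1012 and 825.2 CPM, against 2.22 to 11.7 CPM in stromal cells. Stromal cells were those with at least 0.5% DCN and LUM, no PTPRC and keratins under the rule's minimum. This choice favours low epithelial values in stromal cells, here and below. The size of its effect was not tested.

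Markers of other lineages were low, with 1 exception. The 7 glial genes were at 0 in every library and 1 UMI of the 5 mesothelial genes was counted. The 17 immune genes summed to 7.02 to 16.2 CPM, with 6, 6, 2 and 4 of them detected. The 10 endothelial genes summed to 34.4 to 129.9 CPM and the 7 smooth muscle and pericyte genes to 9.83 to 176.8 CPM. The 7 fibroblast genes, with 6 detected in each library, summed to 378.4, 285.8, 37.9 and 1774 CPM, against 40260 to 101100 CPM in stromal cells. Of the libraries, Normal_2 was the highest in these stromal sums and Normal_1 the lowest. The high fibroblast sum of Normal_2 was not particular to these cells, at 536.2 CPM in its KRT5-detected and 2458 CPM in its uroplakin-detected cells. The part of this RNA in the results below was not tested.

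The rule set its borders inside a continuous range. Of the KRT5-detected cells, 26.1% had exactly 1 KRT5 UMI, and of the uroplakin-detected cells 24.9% had exactly 1 uroplakin UMI, by library 15.6%, 28.4%, 46.5% and 63.2%. These cells lay 1 molecule outside the border. At the keratin border, 86.7% of the 15 cells between 0.2% and 0.25% had a UMI of CDH1 or EPCAM, against 60% of the 10 cells between 0.15% and 0.2%, which met every other part of the rule, and 1.27% of the 158 cells between 0.05% and 0.1%.

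The KRT5- UPK- cells took a smaller share of the urothelial cells in the injured libraries. Injury_1 had 10.0% (95% Wilson interval from 7.70 to 12.99%) and Injury_2 20.6% (from 16.5 to 25.3%). Normal_1 had 31.9% (from 27.3 to 36.8%) and Normal_2 had 45.3% (from 37.3 to 53.6%), where the intervals cover counting error only. The mean was 15.3 ± 7.44% in the injured and 38.6 ± 9.52% in the normal libraries (SD, n = 2 each), a difference of -23.3 percentage points, with a two-sided exact permutation p = 0.3333, the smallest that 2 libraries against 2 allow. Both injured libraries lay below both normal ones. The share depends on depth, since a cell counts as a member when nothing was caught: with every cell thinned to 2000 UMIs, averaged over all draws, the shares were 50.9%, 69.2%, 70.0% and 82.4%, a difference of -16.1 percentage points with Injury_2 and Normal_1 almost level. As a share of all kept cells they were 0.886%, 1.25%, 2.84% and 1.09%, in which the groups overlapped.

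**Figure D1:**
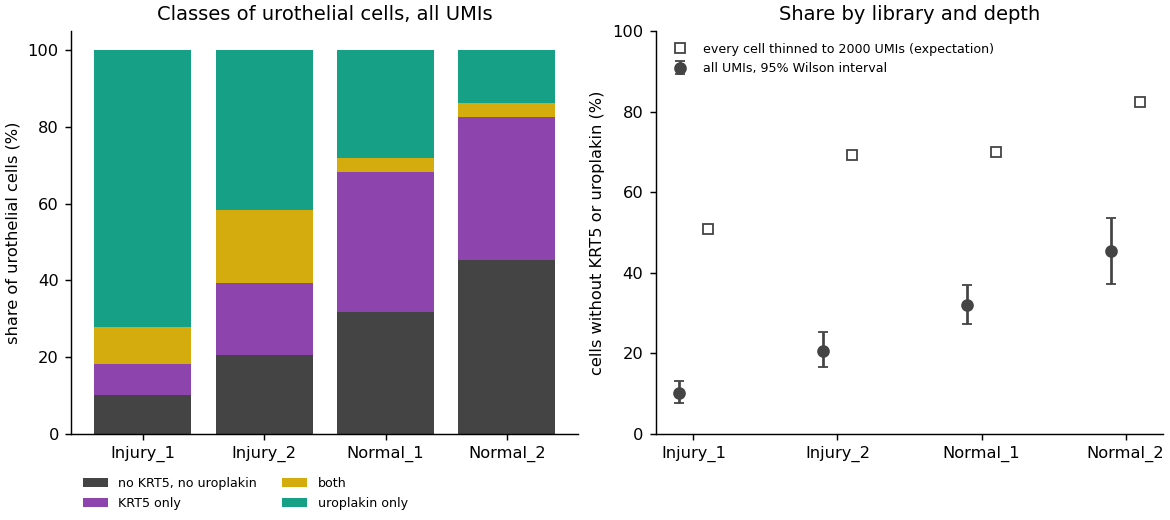
Left, the share of urothelial cells (%) in the 4 classes by library; right, the share (%) of cells without KRT5 or uroplakin with all UMIs (filled, 95% Wilson intervals) and with every cell thinned to 2000 UMIs (open). The filled points lie at 10.0% and 20.6% in the injured and at 31.9% and 45.3% in the normal libraries, and the open points between 50.9% and 82.4%.

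The KRT5- UPK- cells were shallower than KRT5-detected cells and close in depth to uroplakin-detected ones. The median cell held 13133, 16628, 12679 and 19902 UMIs. Uroplakin-detected cells held 11329.5, 15112, 12822 and 20326, less in 2 libraries and more in 2. KRT5-detected cells were deeper, with 19848, 18844, 14498 and 22635 UMIs. The KRT5- UPK- cells lay below them in 4 of 4 libraries, for which a two-sided exact sign-flip permutation test over the libraries gave p = 0.125, the smallest it allows.

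Apart from mitochondrial and ribosomal protein genes, the most abundant gene was GSTA5, a glutathione transferase of detoxification, with 10920, 12910, 14550 and 6516 CPM (11220 ± 3473, SD, n = 4). IER3, an early response gene of stress, was at 15290, 14010, 5809 and 7733 CPM, and SPP1, the secreted phosphoprotein osteopontin, at 10810, 16640, 6957 and 5550 CPM. Between injured and normal libraries neither gene passed the edgeR quasi-likelihood test (Benjamini-Hochberg adjusted p = 0.332 for IER3 and 0.301 for SPP1). LGALS3, the lectin galectin-3, was the most even of the leading genes at 6303 ± 486 CPM. HSPB1, a small heat shock protein, followed at 6302 ± 976 CPM. SF3B2, the symbol of a splicing factor subunit, was at 8103, 5958, 7057 and 2090 CPM. ANXA1, the phospholipid-binding annexin, was at 5279 ± 2024 CPM, AREG, an epidermal growth factor receptor ligand, at 5168 ± 1302 CPM, HSPA8, a constitutive chaperone, at 4211 ± 548 CPM, and KRT15 at 3393 ± 1206 CPM.

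A small set of genes differed between injured and normal libraries within these cells. Of 4799 genes tested, 28 (0.583%) passed an adjusted p of 0.05 in edgeR's quasi-likelihood test on UMIs summed per library, 13 higher (0.271% of the genes tested) and 15 lower (0.313%) in the injured libraries, and 21 of the 28 have a symbol. Among the higher ones were S100A12, INSL5 and CYP4B1, and among the lower ones RARRES1, F3 and LAMB3. With 1 library left out, so that its partner stood alone and was assumed to vary like the other group, the count was 74 without Injury_1, 99 without Injury_2, 375 without Normal_1 and 336 without Normal_2. Genes short of the threshold may still differ, since on simulated data this test found 52% of 4-fold and 0% of 2-fold changes.

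Calgranulins, calcium-binding proteins of antimicrobial defence, came from a few injured cells. S100A12 was at 317.9 and 1142 CPM in the injured libraries and at 0 in both normal ones, at least 716-fold higher against a floor of 3 UMIs over the normal group (1.15 CPM). All of its UMIs lay in 6 of the 50 cells of Injury_1 and 12 of the 66 cells of Injury_2, and 1 cell held 55.3% of them in Injury_1 and 27.1% in Injury_2. Without that cell the level was 144.7 and 847.7 CPM. S100A8 was at 21.1 and 32.5 CPM against 0 and 0, at least 24.5-fold higher, from 4 and 8 cells. Thinned to 2000 UMIs, 4.88% and 4.34% of the injured cells had an S100A8 UMI, against 0.707% and 0.490% of stromal cells of the same libraries, and 6.90% and 13.4% an S100A12 UMI, against 0.598% and 0.570%. Without thinning the S100A8 shares were 8% and 12.1%, against 2.301% and 1.42%.

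S100A9, the partner of S100A8, was at 38.0, 123.5, 0.702 and 2.51 CPM, a log2 fold change of 5.44 ± 0.86 (standard error, edgeR adjusted p = 0.0475), from 6 and 7 injured cells. Thinned, 5.85% and 6.32% of the injured and 0.161% and 0.401% of the normal cells had a UMI, against 1.77%, 0.912%, 0.554% and 2.33% of stromal cells. Leukocytes were taken as PTPRC-detected cells with keratins, and DCN and LUM, under the rule's limits. They held 195.4 to 352.1 CPM of S100A8 and 0.953 to 20.1 CPM of S100A12. The S100A12 level of the KRT5- UPK- cells of both injured libraries was thus far above that of the leukocytes, while their S100A8 level was below it. The part of leukocyte RNA in the S100A8 and S100A9 counts was not tested. The other urothelial cells held S100A12 at 59.8, 560.4, 0.295 and 0 CPM.

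INSL5, a peptide hormone of the relaxin family, was at 257.4, 467.9, 13.3 and 2.51 CPM (log2 fold change 5.29 ± 0.61, edgeR adjusted p = 0.0243). It was widespread, with a UMI in 38.0% and 66.7% of the injured and 12.2% and 4.76% of the normal cells. After thinning to 2000 UMIs the shares were 17.9%, 34.8%, 2.53% and 0.590%, against 0.172%, 0.106%, 0 and 0.0165% of stromal cells, which should lack it. The stromal cells were chosen with keratins under the rule's minimum, as given above. The median depths of the stromal cells were 8030, 8603, 5023 and 7041 UMIs.

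IL1B, the inflammatory interleukin-1 beta, passed the test with 68.9, 220.9, 3.51 and 5.03 CPM (log2 fold change 4.88 ± 0.70, edgeR adjusted p = 0.0394), yet 1 cell held 227 of the 245 UMIs of Injury_2 (92.7%), and without it the level there was 16.5 CPM. Thinned to 2000 UMIs, 10.9%, 4.53%, 0.851% and 0.972% of the cells had an IL1B UMI, against 10.3%, 4.90%, 1.38% and 2.298% of stromal cells, and 48.0%, 21.2%, 4.35% and 9.52% against 32.4%, 17.9%, 3.24% and 7.52% without thinning. The thinned shares lay near or below those of the stromal cells. Leukocytes held 22130 to 29650 CPM, and the part of their RNA in the IL1B counts was not tested. Without the cells of highest doublet score IL1B was no longer called (log2 fold change 2.97, edgeR adjusted p = 0.109).

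Other genes that were higher after injury were spread over more of the cells. CYP4B1, a cytochrome P450 abundant in bladder that oxidizes fatty acids and aromatic amines, was at 2176, 1904, 326.3 and 132.4 CPM (log2 fold change 2.97 ± 0.40, edgeR adjusted p = 0.0372), with a UMI in 98.0%, 95.5%, 64.4% and 50.8% of the cells. SLC44A4, a choline transporter-like protein of epithelia, was at 63.3, 67.6, 2.81 and 4.19 CPM (3.98 ± 0.46, adjusted p = 0.0243 in edgeR). RESF1, a retroelement silencing factor, was at 50.6, 90.2, 8.42 and 3.35 CPM and ALAS1, the first enzyme of heme synthesis, at 315.1, 279.5, 91.2 and 74.6 CPM. ALAS1 was no longer called without Injury_1 (log2 fold change 1.59, edgeR adjusted p = 0.0799). For all of these genes the groups did not overlap, as the rule for naming them required.

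Among genes that were lower after injury, RARRES1, a retinoid-induced membrane protein, was at 18.3, 9.02, 193.0 and 125.7 CPM (log2 fold change -3.81 ± 0.38, edgeR adjusted p = 0.0243). NR1H4, the bile acid receptor FXR, was at 4.22, 3.61, 61.1 and 26.8 CPM (-3.65 ± 0.54, edgeR adjusted p = 0.0394).

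F3, tissue factor, the cell-surface trigger of blood coagulation, was at 213.8, 199.2, 1468 and 3013 CPM (-3.73 ± 0.48, edgeR adjusted p = 0.036). The injured libraries lay close together and the normal ones differed from each other. The laminin-332 chains LAMB3 and LAMA3, which anchor basal cells to the basement membrane, moved the same way. LAMB3 was at 28.1, 23.4, 163.5 and 315.0 CPM (-3.50 ± 0.46, edgeR adjusted p = 0.0372), in 20%, 19.7%, 35.7% and 76.2% of the cells. LAMA3 was at 7.03, 5.41, 55.4 and 157.5 CPM (-4.39 ± 0.70, edgeR adjusted p = 0.0475).

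The rest of the named genes that were lower are enzymes, a transporter and a transcription factor. ALDH2, the mitochondrial aldehyde dehydrogenase, was at 14.1, 18.03, 76.5 and 71.2 CPM, SLC7A11, the cystine importer that feeds glutathione synthesis, at 23.9, 24.3, 87.0 and 105.6 CPM, and DHRS7, a short-chain dehydrogenase, at 272.9, 169.5, 823.2 and 764.1 CPM. The gene listed as c-ets-1, an ETS transcription factor, was at 21.1, 20.7, 84.9 and 74.6 CPM. Their log2 fold changes were -2.40 ± 0.35, -2.23 ± 0.34, -2.09 ± 0.31 and -2.15 ± 0.32. In edgeR, SLC7A11 (adjusted p = 0.0596), ALDH2 (0.0677) and c-ets-1 (0.0784) lost the call without Injury_1 and DHRS7 (0.0951) without Injury_2. Fibroblast genes summed to 37.9 CPM in Normal_1 and 1774 CPM in Normal_2. Of the lower genes, F3, LAMB3 and LAMA3 were higher in Normal_2 than in Normal_1, and RARRES1 and NR1H4 were higher in Normal_1. The part of fibroblast RNA in these differences was not tested.

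**Figure D2:**
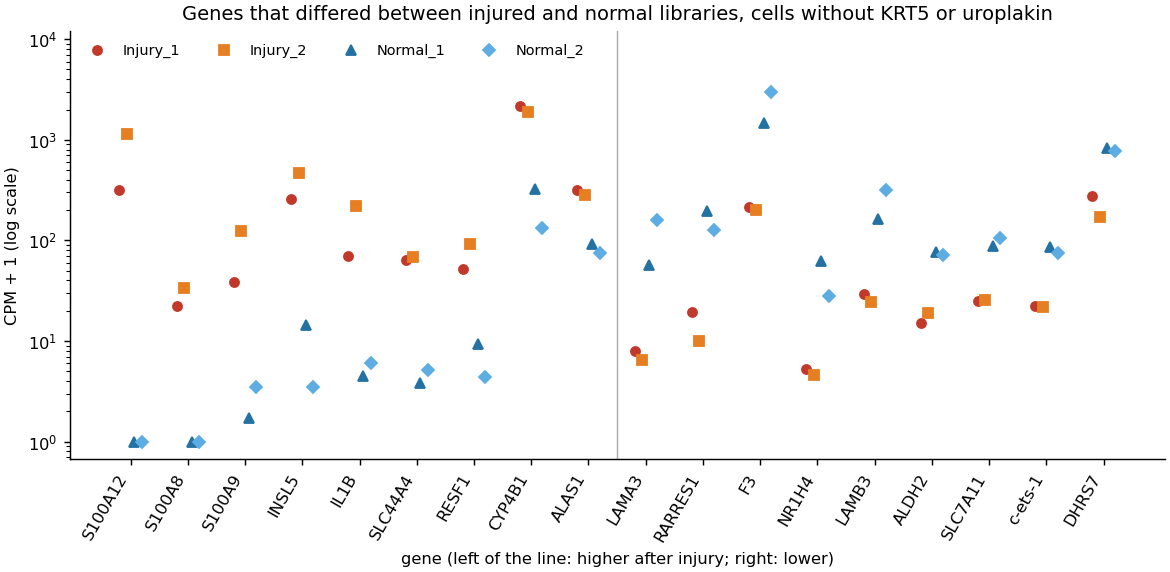
CPM + 1 (log axis) of the 18 genes named here in the KRT5- UPK- cells of each library, genes higher after injury left of the line and genes lower after injury right of it. In every gene both injured points lie on the same side of both normal points, as the rule for naming them required. The genes run from S100A12 (317.9 and 1142 against 0 and 0 CPM) to DHRS7 (272.9 and 169.5 against 823.2 and 764.1 CPM).

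The gene lists were chosen with earlier results of these data known, so their counts are description and no independent support. Of all genes tested, 0.271% were higher and 0.313% lower after injury. By gene list, mucosal barrier and secretion genes moved furthest with injury. Of the 9 members tested, 5 were higher (S100A12, S100A8, S100A9, INSL5 and SLC44A4) and 0 lower. In cells with a UMI of CDH1 or EPCAM the counts were 3 and 0. The calgranulin calls came from a few injured cells, as given above. The median log2 fold change was 5.29, or 4.61 with the members at 0 in the normal group set to their bound, against -0.01 over all genes. PIGR, the receptor that carries antibodies across epithelia, was at 36.6, 301.1, 2.81 and 0 CPM and did not pass (edgeR adjusted p = 0.0768). Of 10 basal genes tested, 0 were higher and 2 lower (LAMA3 and LAMB3), with a median of -0.99 and only CD44 above 0, and 2 to 5 were lower with 1 library left out (5 without Normal_1 and 5 without Normal_2). In cells with a UMI of CDH1 or EPCAM, 0 of the 10 were called, with LAMB3 at -3.50 (edgeR adjusted p = 0.0611) and LAMA3 at -4.42 (0.068). TP63, a transcription factor of basal and intermediate cells, was at 12.7, 18.9, 26.7 and 24.3 CPM (edgeR adjusted p = 0.398). Of 12 thiol redox genes, 2 were lower (SLC7A11 and TXNRD1) with a median of -0.90. TXNRD1, thioredoxin reductase, was at 527.5, 404.8, 1590 and 1464 CPM (-1.95 ± 0.29, edgeR adjusted p = 0.0394), and it lost the call without Injury_1 (adjusted p = 0.0825) and without Injury_2 (0.127), so that 0 of the 12 were called without Injury_1, 1 lower without Injury_2, 6 lower without Normal_1, and 1 higher and 3 lower without Normal_2. In cells with a UMI of CDH1 or EPCAM, 0 of the 12 were called.

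The other lists held few calls. Of 11 genes of differentiated urothelium only CYP4B1 was higher (0 in cells with a UMI of CDH1 or EPCAM), with a median of 0.61, and GATA3, a transcription factor of luminal urothelium, was at 1626, 1465, 915.1 and 421.4 CPM (edgeR adjusted p = 0.239). Of 15 wound edge genes F3 was lower and IL1B, whose limits are given above, passed as higher (median -0.44), with 5 lower without Normal_1 and 0 called in cells with a UMI of CDH1 or EPCAM. Of 8 genes of lipid and cholesterol synthesis 0 were called, with a median of 1.24. FDPS, an enzyme of the isoprenoid pathway, was at 52.1, 77.5, 16.1 and 19.3 CPM (edgeR adjusted p = 0.132). Of 7 antigen presentation and 7 interferon genes 0 were called, with medians of 0.77 and 0.67, and the same held for 11 immediate early, 16 junction, 9 hypoxia, 6 mesenchymal transition and 4 proliferation genes. Among the markers of other lineages, 3 fibroblast, 3 endothelial and 1 smooth muscle gene could be tested and 0 were called, with median log2 fold changes of -2.04, -1.77 and -1.42, on the side of the lower genes.

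The difference between injured and normal libraries in the KRT5- UPK- cells was compared with that in all other urothelial cells by an interaction term with the libraries as blocks. Of 5669 genes, 0 (0%) had an adjusted p under 0.05 in edgeR (419 at an unadjusted p under 0.05), and DESeq2 also called 0 (71 unadjusted). The lowest adjusted p in edgeR was 0.0527, and 7 genes were called without Injury_1, 24 without Injury_2, 0 without Normal_1 and 2 without Normal_2. The test found 73% of 4-fold differences on simulated data. The genes above are therefore not shown to be particular to these cells.

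Against the KRT5-detected cells of the same libraries, few genes differed. In edgeR with the library as a block, 12 of 5052 genes passed (0.238%), 9 higher (0.178%) and 3 lower (0.0594%) in the KRT5- UPK- cells, apart from the genes of the rule. The classes were split by counts in these same cells, so the test says how other genes went along with KRT5, and both class comparisons share the KRT5- UPK- cells. The count moved with single libraries: 4 without Injury_1, 35 without Injury_2, 2 without Normal_1 and 15 without Normal_2.

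CRISP3, a secreted cysteine-rich protein of mucosal surfaces, was at 166.0, 78.4, 57.6 and 29.3 CPM against 25.8, 30.8, 3.75 and 6.28 CPM in KRT5-detected cells (log2 fold change 2.34 ± 0.28, edgeR adjusted p = 0.00138). It was higher in 4 of 4 libraries, as the rule for naming genes required, and was called under all 12 alternatives and left-out libraries tried. SF3B2 was at 8103, 5958, 7057 and 2090 CPM against 2180, 3305, 827.4 and 468.0 CPM (1.90 ± 0.30, edgeR adjusted p = 0.0146). DAB2, an endocytic adaptor, was at 35.2, 19.8, 56.8 and 31.0 CPM against 13.5, 7.92, 6.96 and 12.6 CPM (1.85 ± 0.27, edgeR adjusted p = 0.0111).

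FABP3, a fatty acid carrier, was at 54.9, 305.6, 104.6 and 20.1 CPM against 14.7, 118.8, 13.9 and 7.17 CPM (log2 fold change 1.79). KRT23, an epithelial keratin, was at 78.8, 20.7, 79.3 and 17.6 CPM against 28.3, 8.80, 15.5 and 8.97 CPM (1.62), and ADAMTS14, a procollagen protease, had a log2 fold change of 1.42. Smaller differences were found for ABHD5, a cofactor of triglyceride lipase, with 0.86, and BTG2, an inhibitor of proliferation, with 0.57. KRT17, a keratin of basal and stressed epithelium, was lower, at 5.63, 6.31, 4.21 and 18.4 CPM against 31.9, 23.8, 12.9 and 51.1 CPM (-1.78 ± 0.28, edgeR adjusted p = 0.0132). SERPINB5, the serpin maspin, was at 220.9, 128.0, 499.0 and 405.5 CPM against 363.5, 255.2, 902.3 and 538.9 CPM (-0.77 ± 0.14, edgeR adjusted p = 0.0262). In each of these genes all 4 libraries moved the same way, as the rule for naming them required.

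Several of these calls were lost when 1 library was left out, with the direction kept. SF3B2, FABP3, KRT23, ADAMTS14, KRT17 and SERPINB5 were not called without Injury_1 or without Normal_1, DAB2 not without Normal_1, BTG2 not without Injury_1, Normal_1 or Normal_2, and ABHD5 not without any 1 of the 4. The log2 fold change of SF3B2 was 1.88 without Injury_1 and 1.53 without Normal_1, that of KRT17 -1.66 and -1.79, and that of DAB2 1.32 without Normal_1. The highest adjusted p of each over all its alternatives, DESeq2 and thinning included, was 0.13 for SF3B2, 0.195 for FABP3, 0.211 for KRT23, 0.184 for ADAMTS14, 0.0861 for KRT17, 0.343 for SERPINB5, 0.248 for DAB2, 0.82 for BTG2 and 0.193 for ABHD5. The KRT5- UPK- cells were also the shallower ones in this comparison. With each cell thinned to 2000 UMIs and its class kept, 6 of 1731 genes were called, 2 of them among the 12. With the classes drawn again from the thinned counts, 34 of 1746 were called, 4 of them among the 12.

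Against the uroplakin-detected cells, many more genes differed. In the same edgeR model 332 of 5052 genes passed (6.57%), 232 higher (4.59%) and 100 lower (1.98%) in the KRT5- UPK- cells. Only 16 were called without Injury_1 and 25 without Normal_2, against 301 without Injury_2 and 246 without Normal_1. Injury_1 gave 360 of the 614 uroplakin-detected cells, and Normal_2 gave 19. After thinning to 2000 UMIs with the classes kept, fewer genes could be tested, and 115 of 1731 were called. Of these, 94 were among the 332.

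On the higher side, LAMB3 was at 28.1, 23.4, 163.5 and 315.0 CPM against 3.56, 8.02, 30.0 and 101.3 CPM (log2 fold change 2.31 ± 0.38, edgeR adjusted p = 0.0051). COL8A1, a short-chain collagen, was at 22.5, 14.4, 23.9 and 41.1 CPM against 8.90, 5.01, 3.08 and 5.33 CPM (2.05 ± 0.31, edgeR adjusted p = 0.00395). KRT1, a keratin of the upper epidermis, was at 52.1, 46.0, 42.8 and 36.9 CPM against 12.5, 11.5, 14.6 and 26.7 CPM (1.78 ± 0.24, edgeR adjusted p = 0.00165). These genes were higher in every library, as the rule for naming them required.

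ADORA2B, an adenosine receptor of epithelia, was at 261.6, 135.2, 124.9 and 131.5 CPM against 87.9, 58.2, 61.6 and 18.7 CPM (1.53 ± 0.18, edgeR adjusted p = 0.00103). GLIPR1, a secreted protein related to the CRISP family, was at 130.8, 66.7, 298.3 and 495.1 CPM against 43.2, 42.6, 110.8 and 151.9 CPM (1.48 ± 0.21, edgeR adjusted p = 0.00269). LAMB3, COL8A1, KRT1, ADORA2B, GLIPR1 and, on the lower side, CRISP3 were called under every alternative and left-out library in which they could be tested.

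CXCL8, the neutrophil-attracting chemokine, was at 531.7, 682.4, 49.8 and 264.7 CPM against 434.8, 111.3, 21.6 and 64.0 CPM (1.52 ± 0.33, edgeR adjusted p = 0.0181), and lost the call without Normal_2. OLFM3, an olfactomedin-domain protein, had a log2 fold change of 1.84, RRAD, a small GTPase, one of 1.58, F3 one of 1.44 and SLC27A3, a fatty acid transport protein, one of 1.43. None of these last 4 was called without Injury_1, and the highest adjusted p of each over all its alternatives was 0.106, 0.104, 0.152 and 0.111.

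On the lower side, CRISP3 was at 166.0, 78.4, 57.6 and 29.3 CPM against 809.4, 370.6, 193.9 and 146.6 CPM in uroplakin-detected cells (-2.06 ± 0.21, edgeR adjusted p = 0.000375). SF3B2 was at 23730, 14490, 15450 and 10610 CPM in those cells (-1.51 ± 0.29, edgeR adjusted p = 0.0115) and DAB2 at 138.3, 55.7, 123.9 and 98.6 CPM (-1.43 ± 0.20, edgeR adjusted p = 0.00228). These 3 genes thus stood between the 2 neighbouring classes in every library, which the rule for naming them in both comparisons required.

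KRT12, a keratin best known from the cornea, was at 29.5, 90.2, 53.3 and 68.7 CPM against 190.4, 99.3, 125.4 and 407.8 CPM, a log2 fold change of -1.55. FLRT3, an adhesion molecule, was at 22.5, 13.5, 23.9 and 2.51 CPM against 101.4, 46.6, 42.3 and 18.7 CPM (-1.54). UCHL1, a deubiquitinase, and GALNT5, an enzyme of mucin-type glycosylation, had log2 fold changes of -1.54 and -1.52. TMEM45B, a transmembrane protein of epithelia, SLC9A2, a sodium-proton exchanger, and PRKACB, a catalytic subunit of protein kinase A, had log2 fold changes of -1.41, -1.40 and -1.31. These 7 genes and SF3B2 lost the call without Injury_1 and without Normal_2, and their adjusted p over all alternatives reached 0.47 (PRKACB), 0.241 (KRT12), 0.191 (FLRT3), 0.172 (TMEM45B), 0.166 (UCHL1), 0.099 (SF3B2), 0.0987 (SLC9A2) and 0.0977 (GALNT5).

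Of all genes, 0.178% were higher and 0.0594% lower than in KRT5-detected cells, and 4.59% and 1.98% than in uroplakin-detected cells. Of 11 basal genes tested, 0 were higher and 1 lower (KRT17) than in KRT5-detected cells. The median log2 difference was -0.67, against 0.00 over all genes. Against uroplakin-detected cells, 6 basal genes were higher and 0 lower, with a median of 0.98 against 0.01. The largest were LAMB3, PTHLH, a parathyroid hormone-like peptide of keratinocytes (1.61), ITGA2, a collagen-binding integrin (1.41), and KRT17 (1.38). The count was 1 without Injury_1, 2 without Normal_1 and 2 without Normal_2. KRT17 rested on 4, 7, 6 and 22 UMIs in the KRT5- UPK- cells, with 63.6% of those of Normal_2 in 1 cell. Its call against uroplakin-detected cells was lost in 7 of 10 alternatives, the leaving out of each library among them. ITGA6, the laminin-binding partner of the hemidesmosome, was at 159.0, 161.4, 172.6 and 248.8 CPM, against 287.4, 204.2, 298.3 and 260.0 CPM in KRT5-detected and 129.4, 113.8, 120.8 and 77.3 CPM in uroplakin-detected cells. TP63 was at 24.6, 29.0, 20.9 and 14.4 CPM in KRT5-detected and 12.9, 18.1, 19.2 and 26.7 CPM in uroplakin-detected cells, with edgeR adjusted p = 0.932 and 0.507 for the 2 differences.

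Of 11 genes of differentiated urothelium, 0 differed from KRT5-detected cells (median 0.32), beside 0.238% of all genes. Against uroplakin-detected cells 3 were lower and 1 higher (median -0.28), beside 1.98% and 4.59% of all genes. SNX31, a sorting nexin that binds uroplakins, was at 38.0, 18.03, 54.0 and 18.4 CPM, against 6.14, 14.96, 6.96 and 6.28 CPM in KRT5-detected cells (edgeR adjusted p = 0.0552) and 106.5, 46.1, 123.1 and 61.3 CPM in uroplakin-detected cells (-1.29 ± 0.27, edgeR adjusted p = 0.016). CYP4B1 and GATA3 had log2 fold changes of -1.27 and -0.81, and AQP3, a water and glycerol channel of basal and intermediate cells, was higher by 0.42. Without Injury_1 or without Normal_2, 0 of the 11 were called.

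Of 15 wound edge genes, 0 differed from KRT5-detected cells, beside 0.238% of all genes. Against uroplakin-detected cells 9 were higher and 0 lower (median 0.84), beside 4.59% and 1.98% of all genes. The largest were NRG1, a growth factor of the neuregulin family, at 11.3, 7.21, 12.6 and 13.4 CPM against 2.67, 2.51, 1.54 and 2.67 CPM (2.41 ± 0.39, edgeR adjusted p = 0.0051), then CXCL8, F3 and MMP1, an interstitial collagenase (1.09). Only 3 of them were called without Injury_1 and 0 without Normal_2. Of 6 proliferation genes tested, 0 differed from KRT5-detected cells, with a median of -0.98 and all 6 below 0, and MCM5, a subunit of the replicative helicase, was higher than in uroplakin-detected cells (1.35, edgeR adjusted p = 0.0441), not without Injury_1, Injury_2 or Normal_2. Of 8 epithelial identity genes 0 were called against either class.

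The remaining lists held few calls, to be read against the 6.57% of all genes called against uroplakin-detected cells and the 0.238% called against KRT5-detected cells. CRISP3 was the 1 call of 9 mucosal barrier genes in each class comparison, higher than in KRT5-detected and lower than in uroplakin-detected cells. Against KRT5-detected cells, 0 of the thiol redox, lipid, immediate early, interferon, antigen presentation, junction, hypoxia and mesenchymal transition genes were called. Against uroplakin-detected cells, 2 of 12 thiol redox genes were higher, with a median of 0.39: TXNRD1 (0.99) and AKR1B10, an aldo-keto reductase (0.65). The gap junction gene GJB2 (1.32) and the tight junction gene CLDN1 (0.81) were the calls among 17 junction genes. VEGFA, the vascular growth factor (1.30), was the 1 call of 9 hypoxia genes, PSMB10, an immunoproteasome subunit (0.77), that of 7 antigen presentation genes and HSPB1 (0.35) that of 11 immediate early and stress genes. Each of these calls was lost without Injury_1.

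**Figure D3:**
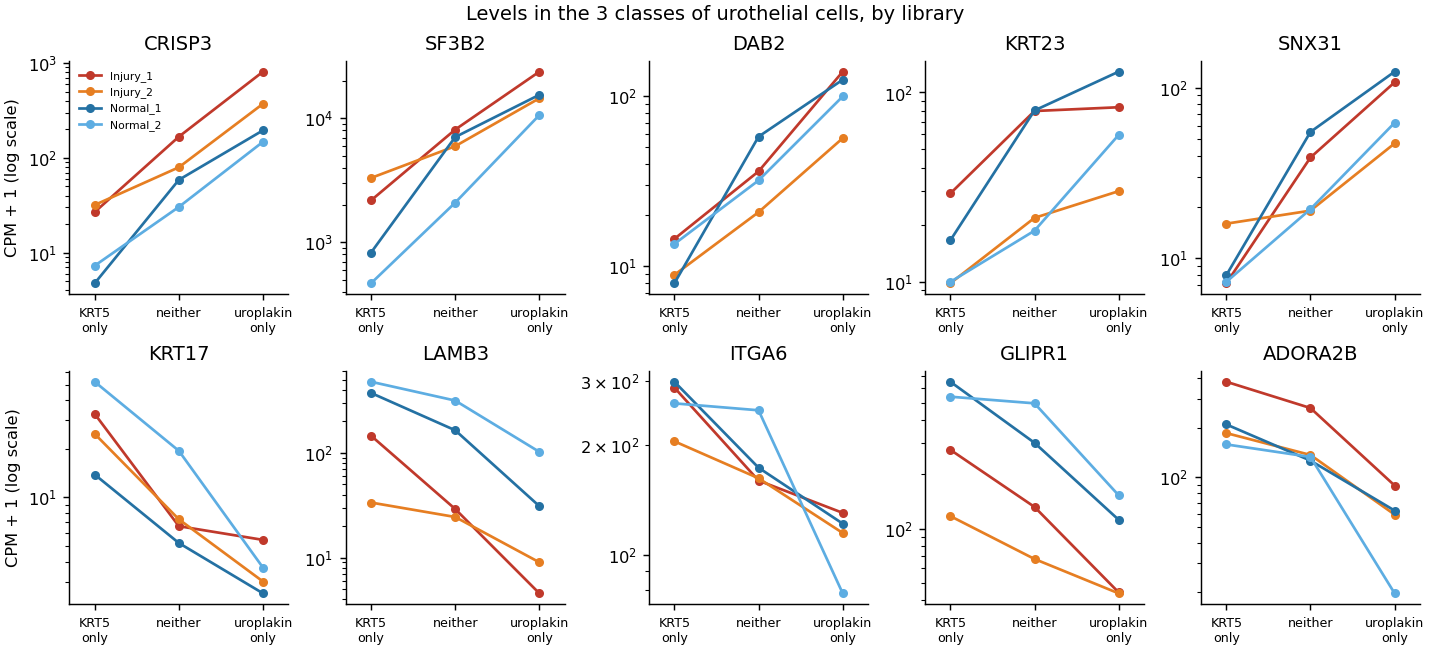
CPM + 1 (log axis) of 10 genes in KRT5-detected, KRT5- UPK- ("neither") and uroplakin-detected cells, 1 line per library. CRISP3, SF3B2 and DAB2 rise from left to right in every library, LAMB3 falls in every library, and KRT17 falls from KRT5-detected to KRT5- UPK- cells in every library. The naming rule required this of CRISP3, SF3B2, DAB2 and KRT17, and of LAMB3 between KRT5- UPK- and uroplakin-detected cells.

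Single cells covered a wide range behind these sums. SF3B2 was spread widely over the KRT5- UPK- cells. The median cell was at 7720, 3958, 2997 and 178.4 CPM. In Normal_1 the middle 50% of cells ran from 280.8 to 14170 CPM, and in Normal_2 from 92.6 to 342.7 CPM, with the 90th percentile at 12970 CPM. In KRT5-detected cells of the normal libraries the 75th percentile was 368.6 and 207.4 CPM, and in uroplakin-detected cells the 25th percentile was 10520 and 4120 CPM. The KRT5- UPK- cells of the normal libraries thus held values of both kinds.

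Some genes rose or fell with SF3B2 from cell to cell, and others showed little relation to it. Spearman's rho of SF3B2 with CYP4B1 over the 50, 66, 115 and 63 cells was 0.69, 0.52, 0.78 and 0.54, and with LAMB3 it was -0.39, -0.47, -0.73 and -0.57. With F3 it was -0.45, -0.26, -0.65 and -0.50, and with GSTA5 0.17, 0.30, 0.81 and 0.60. With the rule's keratins it was 0.02, 0.13, 0.4 and 0.21 for KRT18 and -0.09, 0.04, -0.0 and 0.13 for KRT15. These are descriptions within 1 library each, over cells that share the library and the scaling to their own total. With the UMIs of the cell, rho was -0.38, -0.19, -0.09 and -0.08. GSTA5 had a middle 50% of 3520 to 23280 CPM in Normal_1, and F3 was at 0 in 48.0%, 28.8%, 31.3% and 11.1% of the cells.

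**Figure D4:**
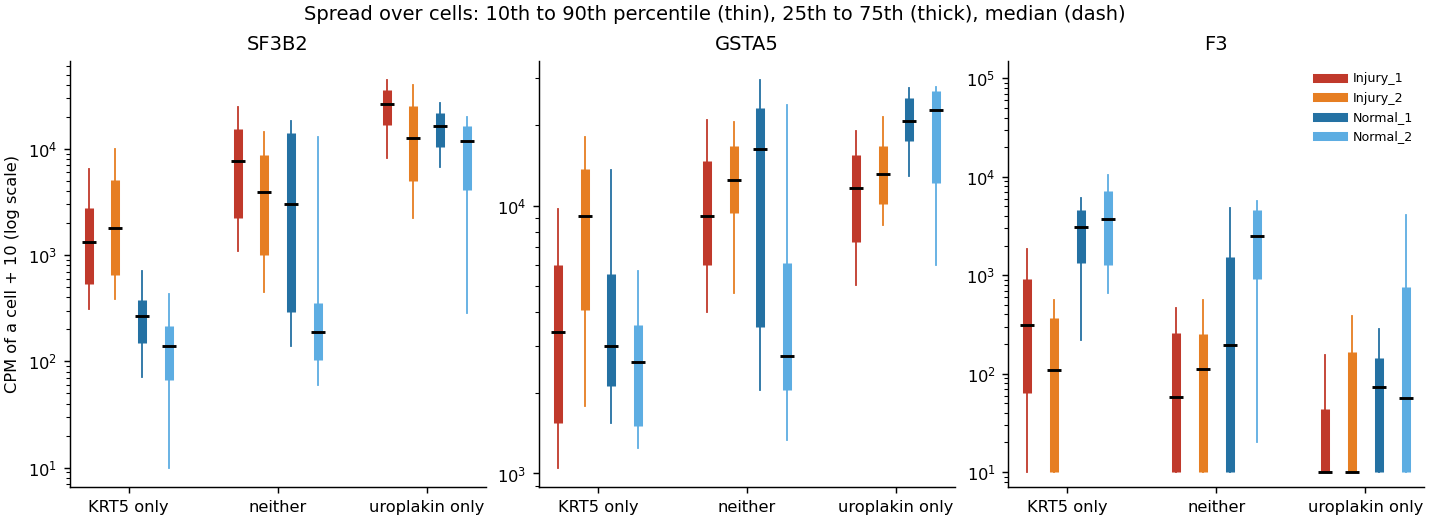
CPM + 10 of single cells (log axis) for SF3B2, GSTA5 and F3 in KRT5-detected, KRT5- UPK- ("neither") and uroplakin-detected cells, by library; thin lines span the 10th to 90th percentile, thick lines the 25th to 75th and dashes mark the median. In Normal_1 the thick SF3B2 line of the KRT5- UPK- cells runs from 280.8 to 14170 CPM, across the gap between the other classes.

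Clustered on their own without integration, the 294 cells fell into 5 clusters that followed the libraries, and clusters are given by number and leading genes with no test. Cluster 0 (114 cells) held 49 of the 50 cells of Injury_1 and 63 of the 66 of Injury_2 with 2 of Normal_2, and was led by PIGR, IL1B and INSL5. Cluster 2 (52 cells) held 47 of the 63 cells of Normal_2 and was led by the collagens COL1A1 and COL1A2, with fibroblast genes summing to 2052 CPM, while 49 of its cells had a UMI of CDH1 or EPCAM. The cells of Normal_1 were split over cluster 1 (36 cells, all from Normal_1, led by TNLG6A and FAM83B), cluster 3 (52 cells, 51 from Normal_1, led by PTHLH and DHRS7) and cluster 4. Cluster 4 (40 cells, 27 from Normal_1 and 13 from Normal_2) was led by KRT12 and NR1H4, with SF3B2, UCHL1 and GSTA5 among its leading 10 genes, and was the one cluster in which both normal libraries had more than 2 cells. Cells from the 5% of each library with the highest doublet scores were 12%, 15.2%, 5.22% and 9.52% of the KRT5- UPK- cells. The shares were lower in the other classes of every library. They were 7.32%, 6.67%, 3.82% and 7.69% of KRT5-detected cells and 1.39%, 7.46%, 0.99% and 5.26% of uroplakin-detected cells. Of the cells with both they were 2.13%, 4.92%, 0% and 0%.

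**Figure D5:**
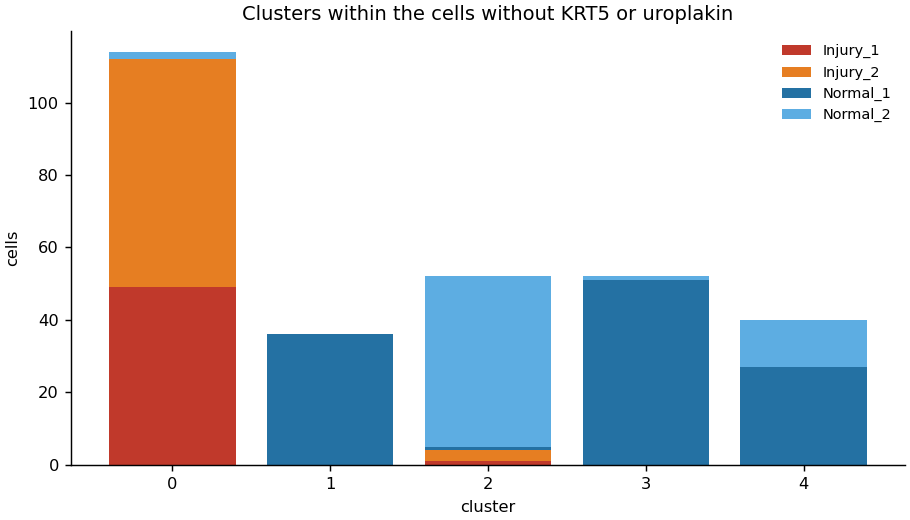
Number of KRT5- UPK- cells in each of the 5 clusters, stacked by library. Cluster 0 holds 112 of its 114 cells from the injured libraries, clusters 1 and 3 come almost wholly from Normal_1, cluster 2 mostly from Normal_2, and cluster 4 from both normal libraries.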

How the data were processed

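The authors deposited raw UMI counts per gene and cell barcode for each of the 4 libraries, with matching lists of barcodes and features. The matrix headers name Cell Ranger 6.0.1, and the submitters' processing notes also name Seurat, which was not used here. The genome build is not given in the sources used here. Of 18475 genes, 9771 carry a symbol, and KRT8, KRT19, KRT20, UPK1A, UPK2, UPK3A and MKI67 were not analysed here.

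Counts were read in Python 3.11.15 (numpy 2.4.6, scipy 1.17.1), cells were selected by the rule, and UMIs were summed per library and class. Genes were tested in R 4.3.3 with edgeR 4.0.16 (with limma 3.58.1; filterByExpr, TMM, quasi-likelihood F test) with Benjamini-Hochberg adjustment at 0.05, with the library as a block between classes. The standard error given with a log2 fold change was derived from the test, as the absolute log2 fold change divided by the square root of F. DESeq2 1.42.0 was an alternative. The interaction was fitted as the change with injury in the KRT5- UPK- cells minus that in all other urothelial cells. Clusters and Scrublet scores came from scanpy 1.11.5 (2000 variable genes, 20 principal components, 15 neighbours, Leiden resolution 0.5), without removal of doublets, and figures from matplotlib 3.10.9. Thinned shares are expectations over all draws of 2000 UMIs.

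The cell rule and the gene lists were chosen with earlier results of these data known. Named were the genes of the rule and the markers, the 10 most abundant genes apart from mitochondrial and ribosomal protein genes, up to 4 members of each list, and in each comparison up to 10 genes each way with the largest change among those called, that had a symbol, reached 20 CPM in their higher group and moved alike in every library. A gene that this rule would name is not reported here. CD44, PIGR, TP63, GATA3, FDPS and ITGA6 were also named after their values had been seen. The methods were tested on simulated data with 200 changed genes.

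The alternatives were other size factors, no filter on low counts, DESeq2, at least 5000 UMIs per cell, a UMI of CDH1 or EPCAM, a keratin minimum of 0.5%, a mitochondrial limit of 10%, removal of the 5% highest doublet scores, thinning to 2000 UMIs, the replicate number as a block, other Leiden resolutions and the leaving out of each library.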

Additional observations from a re-analysis of the deposited data

How the results depend on the processing

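The share of urothelial cells without KRT5 or uroplakin was lower in the injured libraries under every setting tried, by 16.1 to 26.0 percentage points between settings and by 16.6 to 30.0 when 1 library was left out. The differences in median depth kept their direction. Direction was not stable for the median mitochondrial share against KRT5-detected cells (-0.0435 percentage points, from -0.118 to 0.0288 with 1 library left out), the median mitochondrial share against uroplakin-detected cells (0.337, from -0.0869 to 0.696) and the log2 ratio of median genes against uroplakin-detected cells (-0.00046, from -0.0462 to 0.0341).

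The 28 genes called between injured and normal libraries became 365 without a filter on low counts, 80 with DESeq2, 60 without the highest doublet scores, 7 in cells with a UMI of CDH1 or EPCAM, and 74 to 375 with 1 library left out. All 28 were among the calls of DESeq2, and 7 of 7 calls in cells with CDH1 or EPCAM were among the 28. S100A12, INSL5, SLC44A4 and RARRES1 were called in all 11 alternatives, and no named gene of this comparison changed direction. The deviations of libraries with equal replicate numbers from their group means had a correlation of 0.014. With 2 libraries per group both pairs must give the same value, so it is 1 check only. With the replicate number as a block 21 genes were called, 16 of them among the 28.

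The 12 genes called against KRT5-detected cells became 20 with other size factors, 183 without a filter and 41 with DESeq2. The count was 26 without the highest doublet scores, and 2 to 35 with 1 library left out. After thinning it was 6 of 1731 genes tested with classes kept and 34 of 1746 with classes drawn again. Of these calls, 2 and 4 were among the 12. The 332 called against uroplakin-detected cells became 545 without a filter and 16 to 301 with 1 library left out. In the same thinned settings the counts were 115 of 1731 and 64 of 1746 genes tested. The interaction called 1 gene with other size factors, 48 without a filter, 2 in cells with CDH1 or EPCAM, 1 without the highest doublet scores, and 0 to 24 with 1 library left out. HBEGF, a growth factor of the wound edge list named here for this value, was higher than in uroplakin-detected cells by 0.58 and changed to -0.01 after thinning with classes kept. The number of clusters was 4 at resolution 0.3 and 8 at 1.0. The causes were not tested. On simulated data, 0% of 2-fold changes between injured and normal libraries were found.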

Other observations

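Stromal cells of the same libraries held SF3B2 at 255.4, 155.7, 453.9 and 139.8 CPM (Injury_1, Injury_2, Normal_1 and Normal_2), against 8103, 5958, 7057 and 2090 CPM in the cells without KRT5 or uroplakin. Whether the molecules counted under this identifier come from the splicing factor was not tested.

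PIGR, the receptor that carries antibodies across mucosal epithelia, was found in 16, 20, 4 and 0 cells without KRT5 or uroplakin. Thinned to 2000 UMIs, the shares were 8.50%, 17.3%, 0.511% and 0, against 8.33%, 10.9%, 0.730% and 0.430% in the other urothelial cells and 0.101%, 0.158%, 0 and 0.0148% in stromal cells. Stromal cells were chosen with low keratin, and the effect of this choice was not tested. AQP8, a water channel, was at 4.22, 0.902, 22.5 and 51.1 CPM (edgeR adjusted p = 0.0768), and SERPINB5, which was lower than in KRT5-detected cells, was also at 220.9 and 128.0 against 499.0 and 405.5 CPM between injured and normal libraries (edgeR adjusted p = 0.0768). Both were named after their values had been seen, and neither passed the threshold between injured and normal libraries.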
